A study of Mus musculus with 6 samples.

Results

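Germline genes serve egg and sperm formation and are kept off in the cells of the body. Many of them start in a CpG-rich promoter, and in body cells methylation of those CpGs, laid down around implantation by the de novo DNA methyltransferases and copied at each cell division by Dnmt1, holds the promoter shut. Other repressors, among them the E2f6 and Mga-Max complexes and histone methyltransferases, act on the same promoters. Whether any of these genes was turned on in ectopic lesions without Dnmt3a was read here from 10 listed genes: Dazl, Ddx4, Sycp1, Sycp3, Mael, Tex101, Stk31, Tdrd1, Hormad1 and Asz1. They were chosen by name as germline genes under promoter methylation, and all 10 were found among the 56884 genes of the count table. None of these libraries measured methylation itself.

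RNA from 6 ectopic lesions was sequenced, 3 control (WT) and 3 Dnmt3a KO, with 1 library per lesion. Uterine tissue came from floxed donors (Dnmt3a f/f, WT) or floxed donors with Cre under the progesterone receptor gene (Dnmt3a f/f:PR Cre/+, KO), females that were 8 weeks old, and was placed into C57BL/6J recipients carrying an estradiol pellet. Donors of both groups were also injected with estradiol before their tissue was taken. The floxed allele and the estradiol were thus shared by both groups, whereas the Cre allele was carried by KO donors only. By this design only donor cells with a history of progesterone receptor expression could lose Dnmt3a, and recipient cells in the lesion kept it. The labels give 4 weeks and injection of fragments, and the methods give day 21 and a sutured fragment.

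The targeted gene was lower in KO lesions. Dnmt3a (ENSMUSG00000020661.16) stood at 52.7, 43.9 and 51.7 CPM (the usual depth-scaled count, here with TMM-adjusted library sizes) across WT replicates 1, 2 and 3, compared with 30.4, 33.5 and 36.2 CPM across KO replicates 1, 2 and 3. The groups did not overlap. The fitted difference on the log2 scale, KO minus WT, came to -0.57 with a standard error of 0.14, which missed the threshold at an adjusted p = 0.321 (edgeR's quasi-likelihood test, Benjamini-Hochberg). DESeq2's Wald test on the same genes gave -0.58 (adjusted p = 0.00685), in a fit that called 6.26% of the genes with an adjusted p. These libraries are of whole tissue, so that fewer cells of a type and less RNA per cell cannot be told apart, and reads from the exons that Cre leaves in place still count. By immunostaining, the paper reports no Dnmt3a protein in epithelial or stromal cells of KO lesions.

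The libraries held 45370342 to 57239184 counts. Uterine epithelial genes (summed level 11830 to 38450 CPM over 10 genes) and stromal genes (3042 to 10020 CPM over 10 genes) were counted in all 6, with 1 of the 20 genes, Foxa2 in KO replicate 3, at 0. Several libraries also held RNA of other tissues. A list of 10 skeletal muscle genes summed to 29340 and 30870 CPM in WT replicates 1 and 3 against 5.76 to 16.2 CPM in the others, 10 neutrophil genes to 12040 CPM in WT replicate 2 against 38.9 to 562.8 CPM, and 8 pancreatic acinar genes to 5609 CPM in WT replicate 3 against 7.39 to 16.3 CPM. In KO replicate 2, oocyte genes and ciliated-cell genes were counted, and their values stand beside the results they touch. Of the genes with 1 to 20 counts in a library, 89.2% to 90.6% had an even count, so that the usual smallest step was 2 counts rather than 1. How read pairs were counted was not given in the sources used here.

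The promoters of the 10 genes set the question, since the density of CpG and the letters read by known repressors lie there. In the RefSeq table of GRCm38.p6, with 1 window per gene from 250 bases before to 50 after the start, all 10 genes had a window. Tdrd1 had 3 windows in that table and Hormad1 and Stk31 had 2 each, and the first was used. The window of Tex101 (chr7:24672001-24672300) lay inside the gene span given below, away from its annotated 5′ end. The 10 windows held 15 to 38 CpG dinucleotides with a median of 22.5, against a median of 7 over 27025 promoters, of which 9514 held at least 15. Ddx4 had the most (38), followed by Stk31 (29) and Dazl (28), and Sycp3 the fewest (15). The letters CACGTG, the E-box that Max and its partners such as Mga can bind, were present in 7 of the 10 windows, against 7.24% of all promoters and 11.5% of those with at least 15 CpG. The letters GCGGGA or TCCCGC, which are like the site of E2f6, were searched on both strands and were present in 5 of the 10, against 20.0% of all promoters and 45.2% of those with at least 15 CpG. All 5 (Mael, Hormad1, Sycp1, Sycp3 and Ddx4) also held CACGTG, while Asz1, Tex101 and Dazl held neither. Among 41 promoters of other germline genes, 11 held CACGTG and 14 the E2f6-like letters. These are matches of letters and not measured binding. The stretches around the CACGTG nearest the start are shown for 6 of the 7 genes, with that motif in capitals, together with a stretch of Dazl that lacks it. Each runs 5′ to 3′ in the direction of the gene and leaves out annotated exons, which is why the match of Ddx4, within an annotated exon, is not shown.
Mael: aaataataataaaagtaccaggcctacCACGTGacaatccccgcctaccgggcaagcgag
Hormad1: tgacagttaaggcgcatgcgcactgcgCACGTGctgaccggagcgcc
Sycp1: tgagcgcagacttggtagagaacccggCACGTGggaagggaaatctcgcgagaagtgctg
Stk31: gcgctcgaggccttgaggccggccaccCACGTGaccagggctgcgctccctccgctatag
Sycp3: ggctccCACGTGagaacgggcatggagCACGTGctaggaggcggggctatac
Tdrd1: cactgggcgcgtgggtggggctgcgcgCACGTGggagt
Dazl: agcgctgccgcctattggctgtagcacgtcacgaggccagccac
On GRCm38 these lie at chr1:166238935-166238994 (minus strand) for Mael, chr3:95559630-95559676 (plus) for Hormad1, chr3:102936162-102936221 (minus) for Sycp1, chr6:49395457-49395516 (plus) for Stk31, chr10:88459517-88459568 (plus) for Sycp3, chr19:56826171-56826208 (plus) for Tdrd1 and chr17:50293637-50293680 (minus) for Dazl. Sycp3 carried the motif at 2 places in this stretch, and in Tdrd1 it began 11 bases before the start. Genes with the motif included the one with the most counts in the lesions, Ddx4, and one without any, Hormad1.

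**Figure D1:**
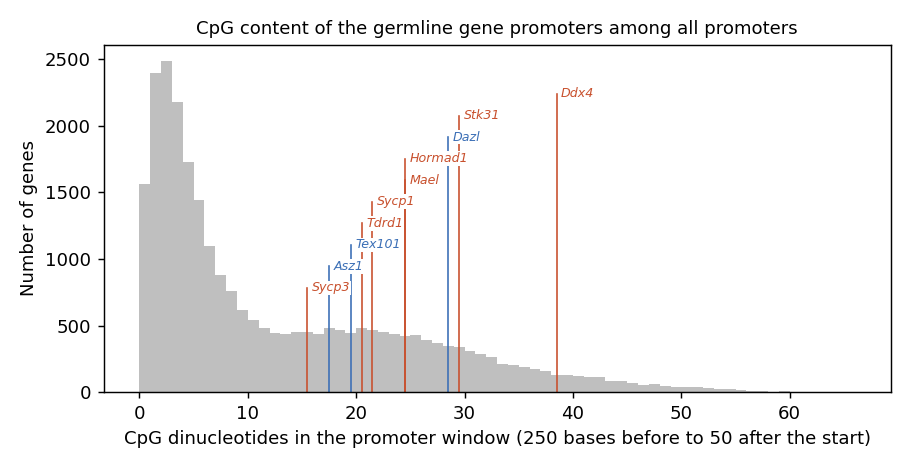
The grey bars count genes by the number of CpG dinucleotides in the promoter window, and each line marks 1 of the 10 germline genes, red where the window holds CACGTG and blue where it does not. All 10 lie at 15 CpG or more, where 9514 of the 27025 promoters lie.

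No listed germline gene was turned on in Dnmt3a KO lesions. A gene was called turned on when it had more than 3 counts, the limit that a count of 0 allows, in all 3 KO libraries and at most 3 in all 3 WT libraries. This was met by 0 of the 8 members with any count, and by 68 of the 30336 genes with a count (0.224%). No member was turned off by the mirror rule, which 0.346% of the genes with a count met. Tex101 and Hormad1 had 0 counts in all 6 libraries, as did 3816 of 21749 protein-coding genes (17.6%). Except for Ddx4, every member had at most 25 counts in every library, which held for 29.5% of protein-coding genes. At these depths a count of 0 allows up to 0.0524 to 0.0661 CPM of the library total. These limits take each count as 1 read. If each fragment gave 2 counts, which the even low counts leave possible, the limit would be 6 counts or 0.105 to 0.132 CPM, and all Sycp1 values lie under it.

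**Figure D2:**
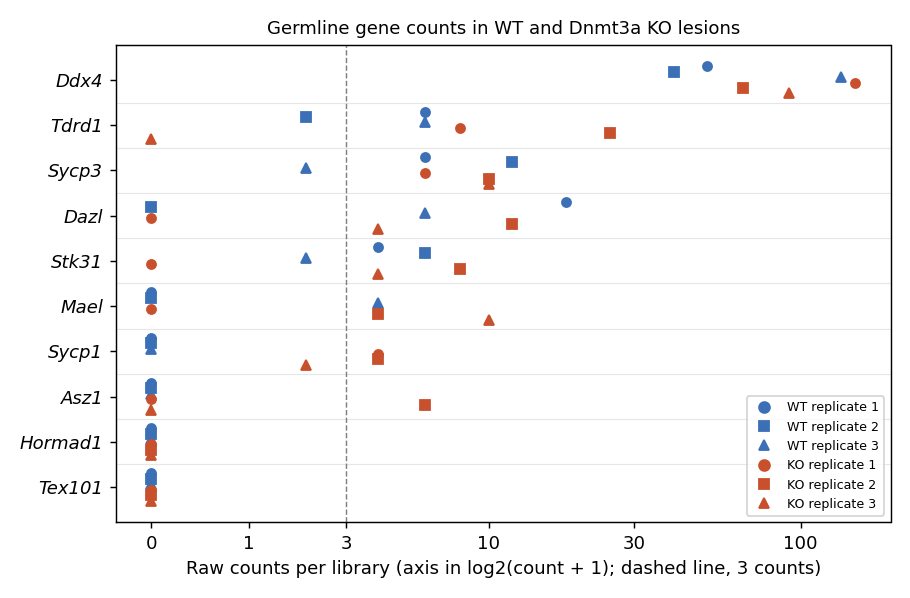
Raw counts of the 10 genes in each library are plotted on a log2(count + 1) axis, with WT in blue, KO in red, a symbol per replicate number and a dashed line at 3 counts. Ddx4 sits between 40 and 148 counts in all 6 libraries, the other genes reach at most 25, and WT and KO symbols are mixed for every gene with counts in both groups.

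Ddx4, the RNA helicase known as Vasa that marks germ cells, was the only member with sizeable counts. Ddx4 (ENSMUSG00000021758.15, chr13:112598333-112652475 on GRCm38) was counted 51, 40 and 134 times across WT replicates 1, 2 and 3, compared with 148, 66 and 92 times across KO replicates 1, 2 and 3. Scaled to library size, the order from low to high was WT replicate 2 (0.900 CPM), WT replicate 1 (1.09), KO replicate 2 (1.31), KO replicate 3 (1.92), KO replicate 1 (2.60) and WT replicate 3 (2.86). The lowest and the highest lesion were thus both WT, and the groups overlapped. The WT mean was 1.62 ± 1.08 CPM (SD, n = 3) and the KO mean 1.94 ± 0.643 CPM (SD, n = 3). The log2 fold change was 0.26, less than its standard error of 0.54 (adjusted p = 0.828, edgeR's quasi-likelihood test). Without WT replicate 2 the log2 fold change was -0.02, and without WT replicate 3 it was 0.94 (adjusted p = 0.449). Per kilobase of exon, the mean level over the 6 libraries was 0.590 CPM for Ddx4 and 2.49 CPM for Dnmt3a. The length used joins all annotated exons of a gene, 3014 bases for Ddx4 and 16642 for Dnmt3a. A gene with many annotated exons thus gets a lower value. Ddx4 was thus counted in all WT lesions as well as in all KO lesions.

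Sycp1, Sycp3 and Hormad1 build the axis and the synaptonemal complex that hold paired chromosomes together in meiosis. Sycp1 (ENSMUSG00000027855.14, chr3:102818499-102936100) had 0 counts in each WT library and 4, 4 and 2 counts in KO replicates 1, 2 and 3. It was the only member whose groups did not overlap, 1 of 8 members with a count, where every KO library lay above every WT library for 7.18% of all genes with a count (exact two-sided permutation test of CPM, p = 0.1, the smallest that 3 lesions against 3 allow). All 3 WT values and 1 KO value were at or under the limit of 3 counts, and no fold is given. Sycp1 would be called turned on with a limit of 1 count (0.346% of genes with a count were) or without KO replicate 3, but not with a limit of 6 or 10 counts.
Sycp3 (ENSMUSG00000020059.10, chr10:88459569-88473236) showed 6, 12 and 2 counts across the WT lesions, compared with 6, 10 and 10 counts across the KO lesions. The KO values lay within the WT range, and the log2 fold change of 0.21 was less than its standard error of 0.70 (adjusted p = 0.898, edgeR's quasi-likelihood test). An exon of Sycp3 overlaps one of Chpt1 on the other strand, a gene of phospholipid synthesis with 8114 to 18727 counts per library. The strand setting of the counting was not given in the sources used here, so that reads of Sycp3 and Chpt1 in the shared stretch cannot be told apart. Hormad1 (ENSMUSG00000028109.15, chr3:95559677-95587671), which marks unpaired chromosome axes, had none.

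Dazl (ENSMUSG00000010592.10, chr17:50279395-50293636), an RNA-binding protein that licenses germ cells for their development, was counted 18, 0 and 6 times across WT replicates 1, 2 and 3, compared with 0, 12 and 4 times across KO replicates 1, 2 and 3. Each group held 1 library at 0, and the highest value was in a WT lesion. Tex101 (ENSMUSG00000062773.7, chr7:24668007-24676675), a glycoprotein of the germ cell surface needed for sperm function, had no counts.

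Tdrd1, Mael, Asz1 and Stk31 belong to, or have been tied to, the nuage, the cytoplasmic granules in which germ cells make piRNAs that silence transposons. Tdrd1 (ENSMUSG00000025081.14, chr19:56826209-56870012) showed 6, 2 and 6 counts across the WT lesions, compared with 8, 25 and 0 counts across the KO lesions, so that the KO group held both the highest and the lowest library. Mael (ENSMUSG00000040629.9, chr1:166201201-166238747) showed 0, 0 and 4 counts across the WT lesions, compared with 0, 4 and 10 counts across the KO lesions. Stk31 (ENSMUSG00000023403.15, chr6:49395604-49469501), a tudor-domain protein with a kinase-like part, showed 4, 6 and 2 counts across the WT lesions, compared with 0, 8 and 4 counts across the KO lesions. Asz1 (ENSMUSG00000010796.12, chr6:18050964-18109061), a mitochondria-associated piRNA factor, had 6 counts in KO replicate 2 and 0 elsewhere. The groups of all 4 genes overlapped or shared values at 0.

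Only Ddx4 and Sycp3 passed the filter on low counts and could be tested across 18177 genes. Of these 2, 0 had an adjusted p under 0.05 and 0 an unadjusted p under 0.05 in edgeR's quasi-likelihood test, and limma voom also gave 0 and 0. DESeq2 gave 0 by unadjusted p and no adjusted p for Sycp3, and that of Ddx4 missed the threshold. Over all tested genes the corresponding shares were 0.0055% and 14.7% in edgeR and 0.066% and 30.1% in limma voom. In DESeq2 they were 6.26% of the genes with an adjusted p and 20.3% of those with an unadjusted p. A rise of more than 1 on the log2 scale at an unadjusted p under 0.05 in edgeR was met by 0 of the 2, and by 3.1% of all genes tested.

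Among the libraries, KO replicate 2 held the most counts of the weakly counted members. Summed over the 9 members other than Ddx4, the level was 0.726, 0.450 and 0.427 CPM across WT replicates 1, 2 and 3, compared with 0.316, 1.37 and 0.625 CPM across KO replicates 1, 2 and 3. KO replicates 1 and 3 lay below and within the WT range, and KO replicate 2 above it. Of the 8 members with a count, 4 (Sycp1, Stk31, Tdrd1 and Asz1) were highest in KO replicate 2, as were 20.1% of all genes with a count. The mean of Tdrd1 over KO lesions was 0.212 CPM with and 0.0702 CPM without that library, against 0.10 CPM in WT.
Most oocyte genes were also highest in KO replicate 2. The egg coat genes Zp1, Zp2 and Zp3 had 90, 242 and 106 counts there and 0 to 6 in the others, Nlrp5, a maternal-effect gene of the egg, had 186 counts and 0 elsewhere, and Nobox, an oocyte transcription factor, had 34 counts and 0 to 2 elsewhere. Over the oocyte list without Kit, which many cells express, 8 of 9 genes were highest in this library, the exception being Oosp1 with 108 counts in WT replicate 2 and 24 in KO replicate 2. Gdf9 and Bmp15, growth factors of the egg, were counted in every library, at 172 and 94 counts in KO replicate 2 and at 15 to 46 and 6 to 16 in the others. The 9 genes came to a sum of 18.9 CPM in KO replicate 2 against 0.614 to 3.83 CPM, and 0 of 9 were at 0 there against 4 to 6 in each other library. Of 10 granulosa and theca genes 7 were highest there, and Amh, Fshr and Cyp19a1 were at 0 in the other 5 libraries. The sum of that list was 122.7 to 129.6 CPM in WT and 170.2 to 202.4 CPM in KO lesions, mostly from Inhbb. A list of 10 ciliated epithelium genes summed to 259.5 CPM in KO replicate 2, to 17.8 and 16.8 CPM in KO replicates 1 and 3 and to 4.46 to 7.84 CPM in WT lesions, with 9 of the 10 highest in KO replicate 2. Every KO library lay above every WT library for 2 of these 10, Foxj1 and Tekt2, and for 7.18% of all genes with a count. The part of these cells in the germline counts was not tested.

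**Figure D3:**
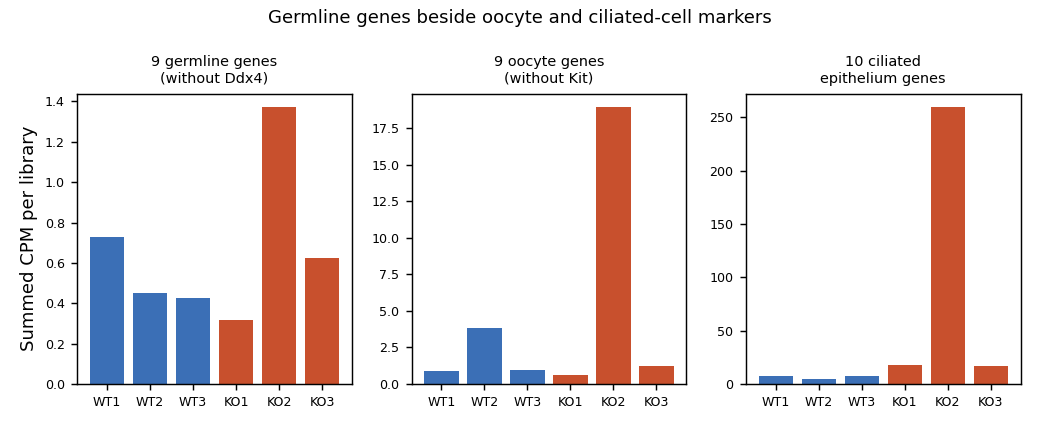
Bars give the summed CPM per library of 9 germline genes (without Ddx4), 9 oocyte genes (without Kit) and 10 ciliated epithelium genes, WT in blue and KO in red. In all 3 panels the tallest bar is KO replicate 2, at 1.37, 18.9 and 259.5 CPM.

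The wider germline programme was compared in 53 further genes, of which 52 were found by symbol and 41 had a count. By the same rule 0 were turned on and 0 turned off. Of 17 that could be tested, 12 were higher and 5 lower after loss of Dnmt3a, and their median log2 fold change was 0.21, against 9348 higher and 8829 lower with a median of 0.01 over all genes tested. None had an adjusted p under 0.05 (0.391 to 0.962) or an unadjusted p under 0.05 in edgeR's quasi-likelihood test, while limma voom gave 5 with an unadjusted p under 0.05 (30.1% of all genes tested had one by that method) and none after adjustment. DESeq2 gave 0 by either p, with no adjusted p for 2 of the 17. Over all genes, 20.3% of those with an unadjusted p and 6.26% of those with an adjusted p were under 0.05 by DESeq2. By role, 5 of 6 tested meiotic chromosome genes, 3 of 6 piRNA and nuage genes and 4 of 5 germ cell identity genes were higher.
The 3 with the highest mean CPM, which is not scaled by gene length, were Tdrd7, Piwil2 and Tdrkh, all of the piRNA and nuage group. Per kilobase of exon the highest were Tdrd7 (12.2 CPM), Syce2 (1.62 CPM) and the meiotic cohesin Rec8 (1.02 CPM). Tdrd7, a tudor protein that is also known from the lens, showed 40.0, 66.7 and 44.5 CPM across the WT lesions, compared with 44.7, 43.1 and 51.3 CPM across the KO lesions. Piwil2, a PIWI protein that binds piRNAs, showed 4.31, 6.89 and 3.65 CPM across the WT lesions, compared with 5.23, 4.71 and 3.96 CPM across the KO lesions. Tdrkh, a mitochondrial partner of PIWI proteins, showed 3.80, 3.87 and 3.72 CPM across the WT lesions, compared with 1.93, 3.3 and 4.25 CPM across the KO lesions. The groups overlapped for all 3.
Genes without overlap were looked up after their values were seen. Every KO library lay above every WT library for 3 of the 41 genes: Syce2, a synaptonemal complex protein (2.14, 3.08 and 2.69 CPM for WT, compared with 4.17, 3.89 and 3.13 CPM for KO), Prdm9, which places meiotic recombination (1.79, 1.91 and 1.43 CPM, and 2.10, 2.56 and 2.17 CPM), and Mybl1, the activator of piRNA genes in the testis (1.88, 2.34 and 1.84 CPM, and 3.09, 2.90 and 2.38 CPM). That is near the 7.18% of all genes with a count. All 3 were among the 17 that could be tested, and over all genes tested the share was 10.7%. They were expressed in WT lesions as well. The summed ciliated epithelium level was likewise higher in every KO than in every WT lesion. In KO replicates 1 and 3 that sum came mostly from Foxj1 (10.5 CPM in each) and Tekt2 (4.47 and 2.83 CPM). No other gene of that list was higher in every KO than in every WT lesion. The part of ciliated cells in these differences was not tested. Every KO library lay below every WT library for Sycp2 and Stag3 (7.4% of genes with a count), at 6, 117 and 8 counts against 2, 4 and 0 for Sycp2, whose highest library was that of Oosp1. Tdrd5, a nuage gene, had 129 counts in KO replicate 2 and 0 to 8 elsewhere.

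**Figure D4:**
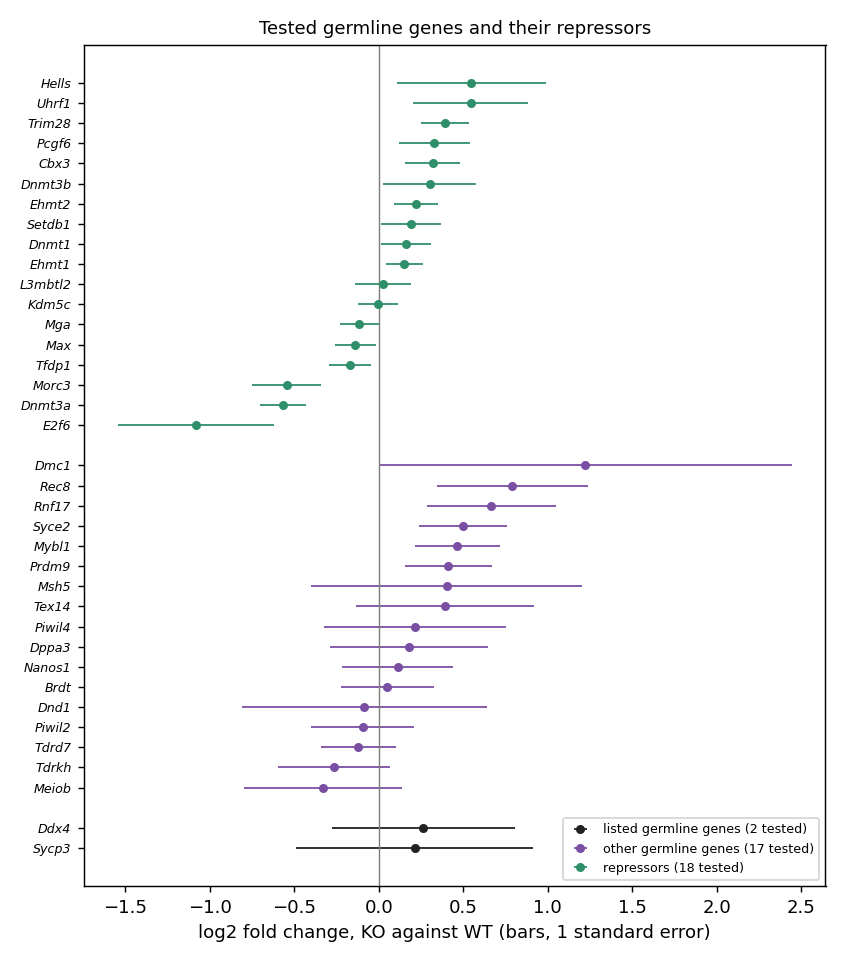
Points give the log2 fold change of KO against WT and bars 1 standard error for the tested genes, in black for the 2 listed germline genes, purple for 17 other germline genes and green for 18 repressors. Ddx4 (0.26) and Sycp3 (0.21) have bars that cross 0, and Dnmt3a (-0.57), Morc3 (-0.54) and E2f6 (-1.08) lie lowest among the repressors.

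The factors known to hold germline genes silent were expressed in both groups. Of 18 repressor genes, all were tested, 11 were higher and 7 lower in KO lesions, and 0 had an adjusted p under 0.05 in edgeR's quasi-likelihood test. At an unadjusted p under 0.05, 1 was higher (Trim28, where 6.55% of all genes tested were higher) and 2 lower (Dnmt3a and Morc3, where 8.16% were lower). Every KO library lay above every WT library for Trim28 and Ehmt2 (2 of 18, against 10.7% of all genes tested) and below for Dnmt3a and Morc3 (2 of 18, against 8.74%). Trim28, the corepressor that brings histone methyltransferases to DNA, showed 120.2, 107.7 and 123.3 CPM across the WT lesions, compared with 170.5, 156.6 and 133.3 CPM across the KO lesions (log2 fold change 0.39, standard error 0.14, adjusted p = 0.328, edgeR's quasi-likelihood test). Morc3, a nuclear silencing ATPase, showed 38.8, 64.4 and 47.5 CPM across the WT lesions, compared with 36.0, 33 and 34.3 CPM across the KO lesions (log2 fold change -0.54, standard error 0.20, adjusted p = 0.332), and its log2 fold change was -0.32 without WT replicate 2.
The other DNA methyltransferases overlapped between the groups. Dnmt1, the maintenance enzyme, showed 40.3, 51.4 and 40.8 CPM across the WT lesions, compared with 53.4, 49.5 and 45.1 CPM across the KO lesions (log2 fold change 0.16, standard error 0.15). Dnmt3b, the second de novo enzyme, showed 2.52, 1.94 and 1.73 CPM across the WT lesions, compared with 2.98, 2.32 and 2.31 CPM across the KO lesions (log2 fold change 0.30, standard error 0.27). Uhrf1, which guides Dnmt1 to newly copied DNA, showed 9.69, 15.3 and 14.1 CPM across the WT lesions, compared with 26.2, 19.3 and 11.6 CPM across the KO lesions (log2 fold change 0.54, standard error 0.34).
E2f6 was picked out after its values were seen. It showed 61.1, 17.9 and 60.7 CPM across the WT lesions, compared with 22.6, 20.1 and 23.3 CPM across the KO lesions. Its log2 fold change of -1.08 had a standard error of 0.46 (adjusted p = 0.344, edgeR's quasi-likelihood test). WT replicates 1 and 3, the highest, were the libraries with skeletal muscle transcripts, and WT replicate 2, without them, lay below all KO lesions. Without WT replicate 2 the log2 fold change was -1.47 (adjusted p = 0.00854), in a fit that called 2.1% of all genes tested. The part of muscle RNA in this difference was not tested. Mga and Max, whose E-box letters recur in the promoters shown, had log2 fold changes of -0.11 and -0.14, with standard errors of 0.11 and 0.12.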

How the data were processed

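Deposited were raw counts of reads per gene, made by the authors on the Galaxy platform from trimmed, mapped reads of stranded mRNA libraries. The submitters' processing notes name Trimmomatic, featureCounts, DESeq2 and GRCm39, and the methods GRCm38. The aligner and annotation release are not given in the sources used here. Symbols and coordinates came from GENCODE M21 (GRCm38): 51948 of 56884 identifiers matched without their version and 35 with it, so coordinates can differ from the counted gene models. The main test used edgeR 4.0.16 (R 4.3.3) (filterByExpr, 18177 genes kept; TMM; quasi-likelihood test with genotype as the only term; Benjamini-Hochberg over all tested genes). CPM used TMM-scaled library sizes. Each standard error was taken from the fold change on the log2 scale and the test's F value. DESeq2 1.42.0 and limma 3.58.1 voom with quality weights were alternatives. Permutation tests were exact and two-sided. The methods give 3 donor mice per genotype, and the labels do not tie a library to a donor. Counting limits cover counting error only. The 10 genes and all lists were chosen with earlier results of these data known. Named were all members, Dnmt3a, list genes with an unadjusted p under 0.05 or turned on or off, and the 3 most abundant other germline genes; other names were chosen outside that rule. The fit was tested on simulated data.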

Additional observations from a re-analysis of the deposited data

How the results depend on the processing

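With 13 other settings, the number of listed germline genes with an adjusted p under 0.05 was 0 each time, as it was for the other germline genes. For the repressors it was 1 with DESeq2's Wald test (Dnmt3a, log2 fold change -0.58) and 0 to 1 with each lesion left out (1 without WT replicate 2, E2f6), against 0. The log2 fold change of Dnmt3a ran from -0.65 to -0.50 with each lesion left out. That of Ddx4 turned to -0.024 without WT replicate 2 and ran to 0.94 without WT replicate 3. The number of members turned on was 1 with a limit of 1 count and 0 to 1 with each lesion left out, against 0. It was 0 with limits of 10 counts or 0.1 CPM, and 0 with a limit of 6 counts, which was added after seeing the data, as were halved counts. At an unadjusted p under 0.05, the number was 1 member without the filter against 0 (Sycp1, which entered through its KO counts alone, so that this is no independent test); 2 other germline genes without the filter (Sycp2 and Stag3), 5 with limma voom and 1 without WT replicate 3, KO replicate 1 or KO replicate 3 against 0; and 7 repressors with limma voom and 1 with the replicate block, without KO replicate 1 or without KO replicate 2 against 3. Of all genes tested, 14.7% had such a p with edgeR as reported, 30.1% with limma voom, 11.1% without the filter, 7.7% with the replicate block, 7.26% without KO replicate 1 and 6.85% without KO replicate 2. Leaving out WT replicate 3 gave a share of 11.4%, and dropping KO replicate 3 raised it to 23.9%. Same-numbered WT and KO lesions did not deviate together (correlations 0.03, -0.15 and -0.20 across genes), which with 3 lesions per group cannot exclude a pairing. With the replicate block the log2 fold change was -0.57 for Dnmt3a and 0.40 for Ddx4, with 0 members called. Under upper quartile scaling the median over the tested genes stood at 0.11 instead of 0.01. Depth limits the 9 members under 26 counts: a change of a few reads per library could not be told from none.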
